A study of Mus musculus with 6 samples.

Results

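The 8 genes Sox9, Sox4, Hnf4a, Onecut1, Onecut2, Foxa1, Foxa2 and Foxa3 code for transcription factors that set liver and bile duct identity. They were taken by gene symbol from the 24404 genes of a table of normalised read counts, and all 8 were found and measured. RNA was sequenced from biliary epithelial cells, which form the wall of the bile ducts, taken from adult C57BL/6 mice given DDC, a compound that damages bile ducts, for 1 week. There were 3 libraries of Klf5 LKO mice, with the genotype Alfp-CreTg/+;Klf5flox/flox, and 3 of control mice, with the genotype Alfp-Cre+/+;Klf5flox/flox. Both groups thus carried the floxed Klf5 gene and both received DDC, so no library shows the uninjured duct or an unfloxed gene. The Alfp-Cre transgene is known to act in the liver's epithelial lineage, hepatocytes included. It was present in the Klf5 LKO group and not in control, so effects of the transgene and of Klf5 loss cannot be told apart. Nothing in the labels states that a group's libraries are from different mice. The p-values therefore cover only the spread among these libraries, part of which may be technical.

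Bile duct cells and hepatocytes arise from a common embryonic precursor, the hepatoblast, and the factors described here act on that choice. In mice, SOX9 marks the duct lineage from its first appearance and SOX4 acts with it while ducts form. ONECUT1 and ONECUT2 act earlier in the same process, HNF4A is the best known regulator of the hepatocyte programme, and the FOXA proteins open chromatin at liver genes in both lineages. Mouse livers without Foxa1 and Foxa2 are known to grow extra bile duct cells and to make more interleukin 6.

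None of the 8 genes passed the test for a difference between Klf5 LKO and control libraries. By limma with Benjamini-Hochberg adjustment at a threshold of 0.05 over 13490 tested genes, 0 of the 8 were called, against 0.652% of all tested genes (88 genes; 0.163% higher and 0.489% lower in Klf5 LKO). The edgeR quasi-likelihood test, DESeq2 and limma-voom on the recovered reads also called 0 of the 8. At an unadjusted p under 0.05, 1 gene of the 8 passed with each of these 4 methods, against 10.9% of all tested genes with limma (5.92% lower in Klf5 LKO). That gene was Onecut2, which was lower, the only one of the 8 whose values in the 2 groups did not overlap, while 15.6% of all tested genes did not overlap. A count of 1 in 8 genes is near both of these background shares. The 95% confidence intervals of the fold changes lay between -0.62 and 0.71 on the log2 scale, so that for all 8 genes a 2-fold change in either direction was outside the interval. Klf5 itself fell, with normalised counts of 977, 1192 and 1183 in Klf5 LKO libraries against 2056, 2018 and 2316 in control libraries (log2 fold change -0.93, SE 0.14, adjusted p = 0.0103). This call ended without control 1, 2 or 3 (adjusted p = 0.0625, 0.0681 and 0.0540). Leaving out any 1 of the 6 libraries gave log2 fold changes of -0.98 to -0.84.

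**Figure D1:**
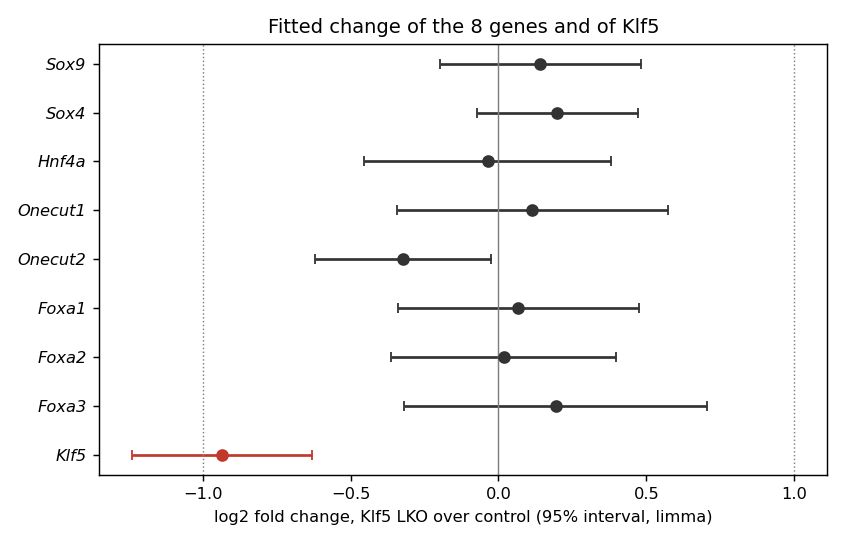
Log2 fold change of Klf5 LKO over control (horizontal axis) for the 8 genes and for Klf5, with points for the fitted value and bars for the 95% confidence interval from limma over 3 and 3 libraries; dotted lines mark a 2-fold change. All 8 intervals stay inside the dotted lines, the interval of Onecut2 (-0.62 to -0.03) lies below 0, the other 7 span 0, and Klf5 lies at -0.93.

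The libraries held 17161087 to 24784167 reads assigned to genes in Klf5 LKO and 11726934 to 20066745 in control. Each of the 8 genes had at least 207 reads in every library (the fewest were those of Onecut1 in control 2), and counting error ranged from 0.890% of the value for Sox9 to 6.95% for Onecut1. These errors cover counting only, because copies made by PCR are counted as separate reads. Duct identity was checked with 22 marker genes, all of them tested. Their mean log2 level was 12.28, 12.45 and 12.39 in Klf5 LKO 1 to 3, against 12.48, 12.55 and 12.56 in control 1 to 3. Each Klf5 LKO library thus lay below each control library. The epithelial adhesion gene Epcam had 25017 ± 1441 normalised counts in Klf5 LKO and 27512 ± 1936 in control (SD, n = 3 each). Single markers differed more and in both directions, with 17 of the 22 fitted log2 fold changes below 0 and 5 above. The keratin gene Krt7 had 6391 ± 1117 in Klf5 LKO and 9778 ± 427 in control, and Cftr 2928 ± 377 in Klf5 LKO and 1955 ± 149 in control. Of 11 hepatocyte markers in the table, 8 passed the filter on low values, and their summed level over the 11 was 10543 to 14885 in Klf5 LKO and 12064 to 15864 in control. The albumin gene Alb had 6081 to 9205 normalised counts in Klf5 LKO and 7063 to 9665 in control, while the urea cycle gene Ass1 and the gluconeogenic gene Pck1 did not exceed 2.03 and 1.06 normalised counts in any library. The libraries also differed in leukocyte transcripts: the mean log2 level of the 8 tested leukocyte markers of 13 was 6.86, 4.11 and 5.38 in Klf5 LKO 1 to 3, against 8.10, 7.07 and 4.64 in control 1 to 3. The summed level of all 13 was 1537 to 1934 in Klf5 LKO and 1390 to 3471 in control, and none of the 13 was at 0 in every library. Much of this sum was Csf1r, with 868 to 1547 normalised counts over the libraries, while Ptprc ranged from 12.7 to 326. In such bulk libraries fewer cells of a type and less RNA per cell cannot be told apart.

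Promoter windows of 300 bases, from 250 before to 50 after a RefSeq start, were available for 6 of the 8 genes on GRCm38.p6. These starts can differ from the gene start given by GENCODE. The Foxa1 window is at a start 805 bases inside the GENCODE gene, and the Foxa2 windows are at starts 1505, 1021 and 0 bases inside it. They are shown because Klf5 codes for a zinc-finger protein of the Krüppel-like family, whose members bind GC-rich boxes such as CCACCC and CCGCCC. Both motifs were searched on both strands, so that GGGTGG and GGGCGG also count, and matches may overlap. Capitals mark the matches. Onecut1 (chr9:74861671-74861970, plus strand) had the most matches in a window, 3 of CCACCC and 3 of CCGCCC, while Sox4 (chr13:28953650-28953949, minus strand) was the only gene of the 6 with no match in its window. Hnf4a is known to be read from a pair of alternative promoters, and its 2 windows (chr2:163506607-163506906 and chr2:163546905-163547204, plus strand) start 40298 bases apart; the table gives 1 count over the whole gene, which does not separate them.
Onecut1: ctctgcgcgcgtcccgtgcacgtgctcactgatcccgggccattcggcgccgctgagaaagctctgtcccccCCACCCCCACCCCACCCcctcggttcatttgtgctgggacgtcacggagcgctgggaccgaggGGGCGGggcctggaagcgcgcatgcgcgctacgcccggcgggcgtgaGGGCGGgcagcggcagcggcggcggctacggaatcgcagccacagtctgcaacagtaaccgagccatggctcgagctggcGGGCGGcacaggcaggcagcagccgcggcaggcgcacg
Sox4: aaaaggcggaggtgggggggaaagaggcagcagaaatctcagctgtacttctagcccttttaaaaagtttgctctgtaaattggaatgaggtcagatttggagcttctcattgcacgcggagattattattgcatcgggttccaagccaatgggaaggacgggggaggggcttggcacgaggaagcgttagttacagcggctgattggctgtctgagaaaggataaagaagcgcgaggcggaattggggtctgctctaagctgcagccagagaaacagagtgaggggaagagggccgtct
Hnf4a, upstream start: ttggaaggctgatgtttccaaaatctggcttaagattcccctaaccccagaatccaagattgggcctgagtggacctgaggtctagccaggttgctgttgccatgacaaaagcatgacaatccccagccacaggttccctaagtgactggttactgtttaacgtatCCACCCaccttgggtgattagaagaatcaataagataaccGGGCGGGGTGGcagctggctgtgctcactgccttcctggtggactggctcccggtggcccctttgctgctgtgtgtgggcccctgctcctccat
Hnf4a, downstream start: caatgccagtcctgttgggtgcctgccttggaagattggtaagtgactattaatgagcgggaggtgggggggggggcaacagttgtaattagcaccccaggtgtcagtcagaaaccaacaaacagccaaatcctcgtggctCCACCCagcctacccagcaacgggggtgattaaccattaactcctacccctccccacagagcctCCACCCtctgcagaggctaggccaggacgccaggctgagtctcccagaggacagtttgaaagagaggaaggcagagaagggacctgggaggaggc

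Over the 9 windows of the 6 genes, 5 held CCACCC and 7 held CCGCCC, against 31.5% and 35.7% of all 32851 windows of the same length. At least 1 of the motifs stood in 8 of the 9 windows and in 52.7% of all windows. Foxa2 and Hnf4a each had more than 1 window, and the 5 windows with CCACCC belonged to Foxa2, Hnf4a and Onecut1 only. These matches describe the letters of the windows and do not show that a factor binds there. Neither Onecut1, with 6 matches, nor Sox4, with 0, passed the test between the groups.

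Sox9 (chromosome 11, 112782224 to 112787760, plus strand, mm10) had the highest level per kilobase of the 8 genes in every library. Its normalised counts were 9395, 9407 and 9955 in Klf5 LKO 1 to 3, against 7528, 7670 and 11358 in control 1 to 3. The Klf5 LKO libraries lay close together and inside the range of the control libraries, of which control 3 was the highest of all 6 and control 1 and 2 the lowest. The coefficient of variation was 3.34% in Klf5 LKO and 24.5% in control, against medians of 15.4% and 12.4% over the 10735 tested genes with a mean of at least 100. The log2 fold change was 0.14 (SE 0.16, 95% interval -0.20 to 0.48, adjusted p = 0.806).

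Sox4 (chromosome 13, 28948919 to 28953713, minus strand), a gene of a single exon, had normalised counts of 6813, 7267 and 6306 in Klf5 LKO 1 to 3, against 5852, 5309 and 6653 in control 1 to 3. The groups overlapped only in that Klf5 LKO 3 lay below control 3. The means were 6795 ± 481 in Klf5 LKO and 5938 ± 676 in control (SD, n = 3 each), and the log2 fold change was 0.20 (SE 0.12, 95% interval -0.07 to 0.47, adjusted p = 0.617). The antisense gene Gm26735 covers 54.6% of its exon, and reads of the 2 genes cannot be told apart unless strand was used in counting, which the sources used here do not give.

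Onecut2 (chromosome 18, 64340020 to 64400987, plus strand) is known to work redundantly with Onecut1 in mouse liver development. It was lower in every Klf5 LKO library, with normalised counts of 8261, 7747 and 6727 in Klf5 LKO 1 to 3, against 9014, 8441 and 11090 in control 1 to 3. The highest Klf5 LKO library lay below the lowest control library, as was the case in the same direction for 7.88% of all tested genes. Means were 7578 ± 781 in Klf5 LKO and 9515 ± 1394 in control (SD, n = 3 each). The log2 fold change of -0.32 (SE 0.14, 95% interval -0.62 to -0.03) had an unadjusted p of 0.0356 and did not pass after adjustment by limma (adjusted p = 0.414). In the authors' deposited table Onecut2 has a log2 fold change of -0.30 (SE 0.13) with an adjusted p of 0.272.

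Onecut1 (chromosome 9, 74861921 to 74891781, plus strand), whose protein is needed for normal duct formation in mice, was the least abundant of the 8. Its normalised counts were 391, 411 and 305 in Klf5 LKO 1 to 3, against 372, 327 and 317 in control 1 to 3. Klf5 LKO 2 was the highest library and Klf5 LKO 3 the lowest, so the control values lay inside the Klf5 LKO range. The log2 fold change was 0.11 (SE 0.21, 95% interval -0.34 to 0.57, adjusted p = 0.891). The gene Gm20649 on the same strand shares 52.8% of its exon bases and is not among the genes listed with counts. How reads in the shared bases were counted is not given, which also bears on the level per kilobase and the family share of Onecut1 below.

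Hnf4a (chromosome 2, 163506808 to 163572910, plus strand) had normalised counts of 1969, 1657 and 1277 in Klf5 LKO 1 to 3, against 2061, 1342 and 1626 in control 1 to 3. High and low libraries stood in both groups and the ranges were nearly the same. The log2 fold change was -0.04 (SE 0.19, 95% interval -0.45 to 0.38, adjusted p = 0.966). The mean log2 level of the 8 tested hepatocyte markers was 8.16, 7.49 and 8.52 in Klf5 LKO 1 to 3, against 8.28, 8.02 and 7.72 in control 1 to 3. With this level as a term in the fit the log2 fold change of Hnf4a was -0.03. The part of hepatocyte transcripts in the Hnf4a count was not tested beyond this fit.

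The FOXA genes showed no common direction across libraries. Foxa1 (chromosome 12, 57540628 to 57546916, minus strand) had normalised counts of 1114, 793 and 1220 in Klf5 LKO 1 to 3, against 852, 985 and 1116 in control 1 to 3. Its lowest and its highest library were both Klf5 LKO libraries, 2 and 3. The log2 fold change was 0.07 (SE 0.19, 95% interval -0.34 to 0.47, adjusted p = 0.932).

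Foxa2 (chromosome 2, 148042877 to 148046969, minus strand) had normalised counts of 744, 770 and 755 in Klf5 LKO 1 to 3, against 630, 721 and 918 in control 1 to 3. The Klf5 LKO values were close together, with a coefficient of variation of 1.74%, which is below the counting error of the gene (3.11% to 4.68%), and the control values lay on both sides of them, with 19.5%. The log2 fold change was 0.02 (SE 0.17, 95% interval -0.36 to 0.40, adjusted p = 0.983). Foxa3 (chromosome 7, 19013284 to 19023538, minus strand) had normalised counts of 719, 665 and 482 in Klf5 LKO 1 to 3, against 433, 479 and 742 in control 1 to 3. The groups overlapped only through control 3, the highest of all 6 libraries, and Klf5 LKO 3 lay just above control 2. Its log2 fold change of 0.19 (SE 0.23, 95% interval -0.32 to 0.71, adjusted p = 0.826) had the widest interval of the 8. Il6, the interleukin 6 gene, had 0 reads in every library, which allows up to 2.24 to 4.74 normalised counts (3 reads), and a difference between the groups was not detectable at this depth.

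**Figure D2:**
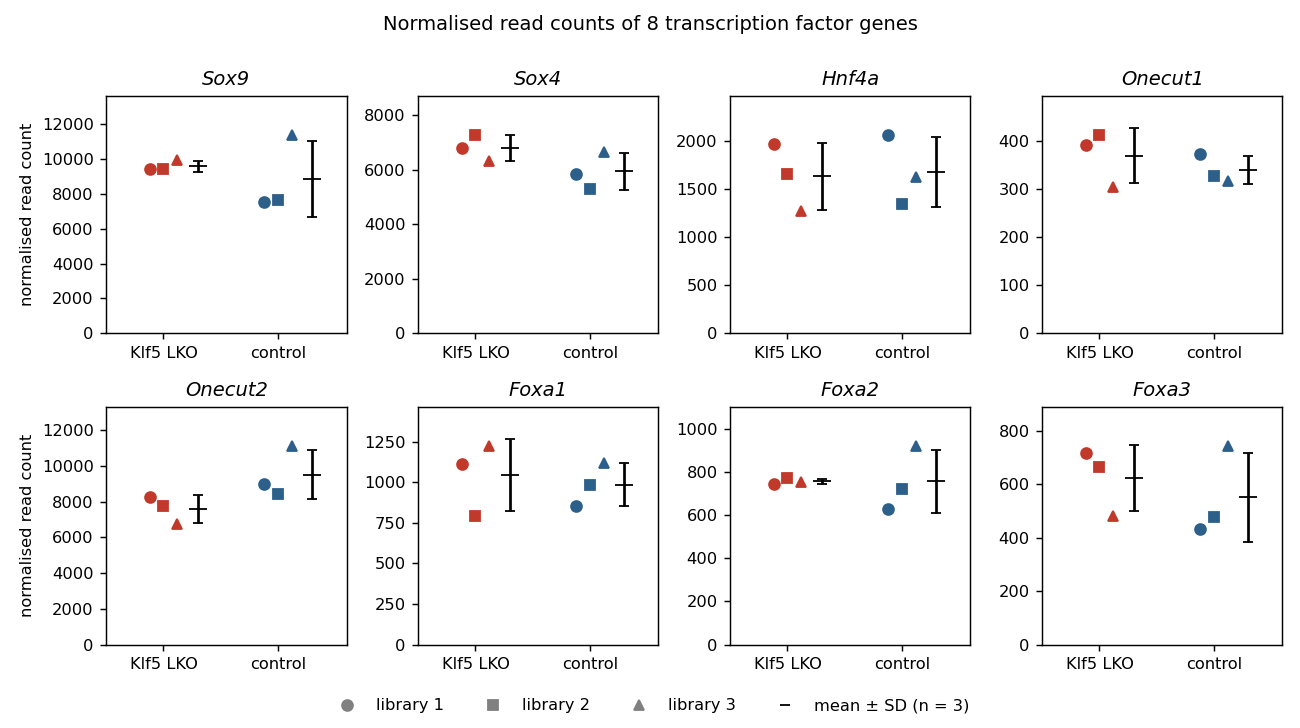
Normalised read count (vertical axis, from 0) of each of the 8 genes in the 3 Klf5 LKO libraries (red, left) and the 3 control libraries (blue, right); marker shape gives the library number, and the black bar beside each group is the mean ± SD (n = 3). Onecut2 is the only panel in which the groups do not overlap, and control 3 is the highest library for Sox9, Onecut2, Foxa2 and Foxa3.

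Control 3 held the highest value for 4 of the 8 genes, Sox9, Onecut2, Foxa2 and Foxa3, while it was the highest library for 16.4% of all tested genes. Control 3 was also the control library with the lowest leukocyte level, and the summed level of 8 endothelial markers was 475 there, against 138 to 252 in the other 5 libraries. The part of endothelial transcripts in these values was not tested, and that of leukocyte transcripts was not tested beyond a fit with that level as a term, in which the log2 fold changes were 0.0090 for Sox9, -0.38 for Onecut2, -0.10 for Foxa2 and 0.05 for Foxa3, and 0 of the 8 genes were called. Without control 3, Sox9, Sox4, Foxa2 and Foxa3 were higher in every Klf5 LKO library than in either remaining control library, and Onecut2 was lower. That is 5 of 8 genes without overlap, against 27.4% of all tested genes counted in the same way, a comparison added after the values were seen. For Sox9, Sox4, Foxa2 and Foxa3 the overlap came only from control 3, so its end without that library followed from values already seen. The 27.4% is therefore not a test of these genes, and genes that vary alike, such as Sox9 and Foxa2, are not separate counts. Without Klf5 LKO 3 the count was 3 of 8 (Sox4 and Onecut1 higher, Onecut2 lower) against 26.5% of all tested genes. Without Klf5 LKO 1, Klf5 LKO 2, control 1 or control 2 it was 1 of 8, Onecut2, against 25%, 29.7%, 24.1% and 23% of all tested genes. The log2 fold changes without control 3 were 0.33 for Sox9, 0.28 for Sox4, 0.17 for Foxa2 and 0.43 for Foxa3, and limma called 0 of the 8 genes there (the lowest adjusted p was 0.395, for Sox9).

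**Figure D3:**
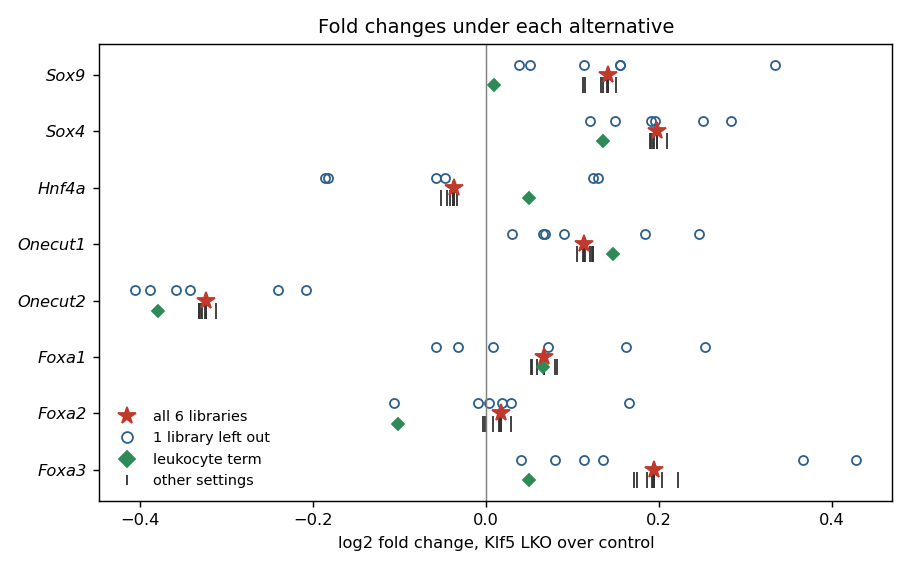
Log2 fold change of Klf5 LKO over control (horizontal axis) for each of the 8 genes over all 6 libraries (star) and under 18 alternatives: leaving out 1 library (open circles), a leukocyte term (diamond) and other settings (ticks). Values for Onecut2 stay below 0 and those for Sox9, Sox4, Onecut1 and Foxa3 above 0 under all 18, while those for Hnf4a, Foxa1 and Foxa2 fall on both sides of 0.

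Over the 8 genes the median log2 fold change was 0.09, with 6 fitted values above 0 and 2 below, beside a median of -0.01 over all tested genes. The median size of the change, regardless of sign, was 0.13 for the 8 genes, 0.20 for all tested genes and 0.17 for tested genes with a mean of at least 100. The likeness of 2 genes was measured by the root mean square difference of their log2 levels over the 6 libraries, after each was centred on its own mean. Among the 28 pairs of the 8 genes, Sox9 and Foxa2 were most alike (0.0957) and Hnf4a and Foxa1 least alike (0.401). Onecut1 and Onecut2 differed by 0.282, more than Sox9 and Sox4 (0.148).

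Likeness was also measured between each of the 8 genes and the 10344 other named genes with a mean of at least 100. Fam207a (0.0385) and Fgfr1, a growth factor receptor (0.0621), were closest to Sox9, and N6amt1 (0.0290) and Pnpla8 (0.0361) to Sox4. Rdh10, a retinol dehydrogenase (0.0639), and the protease gene Pcsk7 (0.0671) were closest to Onecut2, and Chpf2 (0.0236) and Pddc1 (0.0368) to Onecut1. Daglb (0.0351) and the DNA repair gene Ogg1 (0.0615) were closest to Hnf4a. For Foxa1 these were Abl2 (0.0634) and Cwc27 (0.0686), for Foxa2 Plekhb2 (0.0388) and Tbc1d14 (0.0451), and for Foxa3 Ccdc166 (0.0717) and Zfp426 (0.0853). None of these 16 genes was called between the groups (adjusted p at least 0.464 by limma). This follows from how they were picked, by likeness to genes that were themselves not called. Among 10344 genes compared over only 6 libraries, close matches can also arise by chance.

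Levels of different genes were compared as normalised counts per kilobase of exon. This takes reads as evenly spread over all annotated exon bases, which was not checked. Before the division Onecut2 had more counts than Sox4, with means of 8547 and 6367 over the 6 libraries. The overlap of Sox4 with Gm26735 also bears on the level of Sox4. Sox9 stood at 2318 ± 77.5 in Klf5 LKO and 2141 ± 525 in control, and Sox4 at 1417 ± 100.2 in Klf5 LKO and 1238 ± 141 in control (SD, n = 3 each). Onecut2, whose exons cover 16.234 kb, was next with 467 ± 48.1 in Klf5 LKO and 586 ± 85.8 in control. The ranges of these 3 genes over the 6 libraries did not overlap. Hnf4a, Foxa2, Foxa1 and Foxa3 followed with overlapping ranges, with means over all 6 libraries of 343, 319, 305 and 288, and neighbours in this order did not differ beyond their spread. Onecut2 was above Hnf4a in 6 of 6 libraries although their ranges overlapped. Onecut1 was lowest, with 89.7 ± 13.8 in Klf5 LKO and 82.4 ± 7.18 in control, below every value of the other 7 genes.

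**Figure D4:**
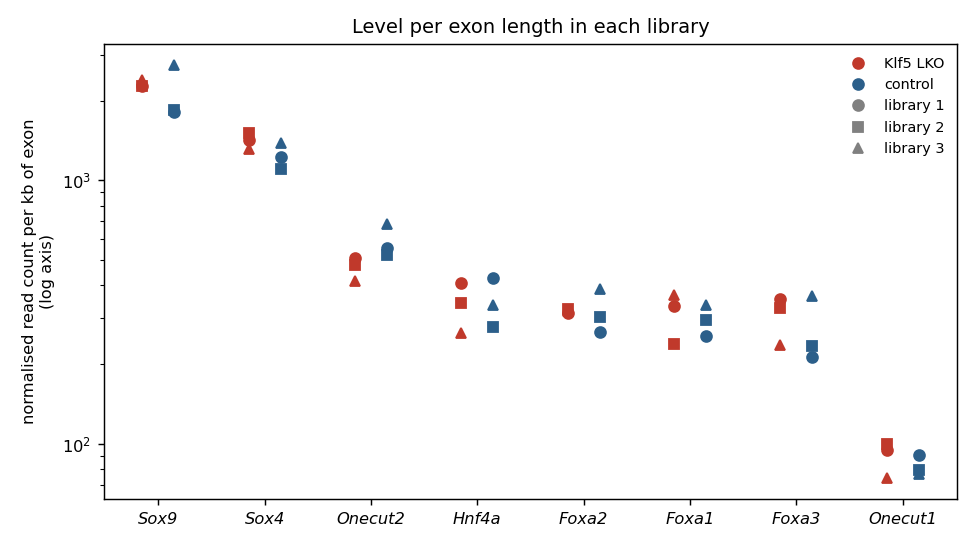
Normalised read count per kilobase of exon (vertical log axis) of the 8 genes in order of their mean, in Klf5 LKO libraries (red, left of each pair) and control libraries (blue, right), with marker shape for the library number. Sox9, Sox4 and Onecut2 form separate steps, Hnf4a and the 3 FOXA genes share 1 range between 213 and 427, and Onecut1 lies between 74.0 and 100.02.

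Within families, the level per kilobase was split between the genes in each library, a comparison chosen after the values were seen. Onecut1 made up 15.7%, 17.3% and 15.2% of the sum of Onecut1 and Onecut2 in Klf5 LKO 1 to 3, against 14.0%, 13.3% and 10.1% in control 1 to 3. Its share was higher in every Klf5 LKO library, with means of 16.1% ± 1.12 in Klf5 LKO and 12.5% ± 2.06 in control (SD, n = 3 each). The exact two-sided permutation test gave p = 0.1, the smallest that 3 against 3 libraries allow, and 0.5 after adjustment over the 5 shares tested. Sox9 made up 62.1% ± 2.37 of the sum of Sox9 and Sox4 in Klf5 LKO and 63.0% ± 3.30 in control (exact permutation p = 0.7, adjusted 0.875). The 3 FOXA genes had nearly equal shares: Foxa1 33.3% ± 6.49 in Klf5 LKO and 33.7% ± 2.50 in control, Foxa2 34.1% ± 2.62 in Klf5 LKO and 36.1% ± 0.389 in control, and Foxa3 32.5% ± 5.98 in Klf5 LKO and 30.2% ± 2.89 in control. The exact permutation p of the FOXA shares was 1 for Foxa1, 0.4 for Foxa2 and 0.7 for Foxa3 (adjusted 1, 0.875 and 0.875). The spread of the FOXA shares was wider in Klf5 LKO, where Foxa1 ranged from 26.8% in library 2 to 39.8% in library 3.

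Other transcription factors of liver and duct showed no called change. Of 20 such genes, 17 were tested and 0 were called by limma, edgeR, DESeq2 or voom. Their median log2 fold change was -0.04. With each method 1 of the 17 had an unadjusted p under 0.05, against 10.9% of all tested genes with limma. Hhex, which acts in early liver growth, had 3571 ± 695 in Klf5 LKO and 3696 ± 975 in control (adjusted p = 0.966 by limma). The groups did not overlap for 3 of the 17, a share near the 15.6% of all tested genes, and none of the 3 passed the test by limma. These were Onecut3, another gene of the Onecut family (lower in Klf5 LKO, adjusted p = 0.425), Prox1, a hepatoblast factor (higher, adjusted p = 0.534), and the bile acid receptor gene Nr1h4 (higher, adjusted p = 0.746), named here after their values were seen. Onecut3 rested on few reads, 8, 4 and 13 in Klf5 LKO 1 to 3, against 35, 9 and 60 in control 1 to 3.

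Among the relatives of the 8 genes, 17 other SOX genes were listed, 5 passed the filter and 0 were called or had an unadjusted p under 0.05 with limma, edgeR, DESeq2 or voom. Sox6 and Sox5 led them, with Sox6 at 562 ± 19.1 in Klf5 LKO against 484 ± 94.1 in control, and Sox5 at 538 ± 119 in Klf5 LKO against 490 ± 134 in control. Sox1, Sox3, Sox10 and Sox14 had no reads. Of 41 other forkhead genes, 18 were tested and 0 were called with any of these 4 tools. By limma 2 of the 18 (Foxm1 and Foxo3) had an unadjusted p under 0.05, against 10.9% of all tested genes. Foxp1 had 2633 ± 156 in Klf5 LKO and 2687 ± 250.3 in control, and Foxn3 2669 ± 200 in Klf5 LKO and 2586 ± 297 in control. Foxm1, which drives mitotic genes and is named after its values were seen, had 232, 405 and 349 in Klf5 LKO 1 to 3, against 422, 484 and 564 in control 1 to 3 (log2 fold change -0.60, adjusted p = 0.378 by limma).

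Notch and TGF-beta signals guide where ducts form. Of 23 genes of these pathways, 21 were tested and 0 were called by limma, edgeR or voom. At an unadjusted p under 0.05 limma found 4 of the 21, against 10.9% of all tested genes. They were Tgfb2, Tgfb3 and Smad3, higher in Klf5 LKO, and Tgfbr2, lower, named after their values were seen. The groups did not overlap for 3 of the 21 (Tgfb2, Tgfb3 and Smad3), a share near the 15.6% of all tested genes. The Notch target Hes1 had 16354 ± 8012 in Klf5 LKO and 12483 ± 4973 in control, and the ligand Jag1 15045 ± 3592 in Klf5 LKO and 13376 ± 2551 in control (adjusted p = 0.729 and 0.816 by limma). The ligand Tgfb2 had 2098 ± 238 in Klf5 LKO and 1366 ± 188 in control (log2 fold change 0.62, adjusted p = 0.103 by limma) and passed only with DESeq2 (adjusted p = 0.00930).

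Genes that depend on these factors in hepatocytes were mostly at low levels. Of 16 genes known to need HNF4A in mouse liver, 4 passed the filter, and Otc, F13b and Cyp8b1 had no reads. Apob, the main apolipoprotein of very low density lipoprotein, fell, with normalised counts of 224, 407 and 310 in Klf5 LKO 1 to 3, against 726, 640.1 and 808 in control 1 to 3 (log2 fold change -1.24, SE 0.23, adjusted p = 0.0322 by limma). It was the 1 called gene of the 4, against 0.652% of all tested genes, and the others were Mttp, Slc10a1 and Ttr. Of 11 liver genes bound by FOXA proteins, 6 were tested, of which Serpina1c rose, Apob fell and 4 did not pass. Apob stands in both lists and among the hepatocyte markers, so these are the same call. At an unadjusted p under 0.05 limma found 3 of the 6, against 10.9% of all tested genes. The third was Tat, named after its values were seen, with 580, 492 and 471 in Klf5 LKO 1 to 3. Its control 1 to 3 had 108, 86.9 and 490 (log2 fold change 1.62, adjusted p = 0.230 by limma). Serpina1c, an antitrypsin copy whose near-identical neighbours make its own count uncertain, had 3498 ± 72.9 in Klf5 LKO and 1421 ± 143 in control (SD, n = 3 each; adjusted p = 0.000512 by limma). The call of Apob ended without Klf5 LKO 3 (adjusted p = 0.0962), control 1 (0.152), control 2 (0.124) or control 3 (0.136) and with no filter (0.0539), while that of Serpina1c held under all 18 alternatives.

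Among the 22 duct markers limma called 1 higher (Sctr) and 1 lower in Klf5 LKO, with 20 short of the threshold. Their log2 fold changes had a median of -0.17, with 17 below 0 and 5 above. DESeq2 called 5 of the 22. At an unadjusted p under 0.05 limma found 8 of the 22, against 10.9% of all tested genes. The groups did not overlap for 8 of the 22, in both directions, against 15.6% of all tested genes. Named after their values were seen, Krt7 (log2 fold change -0.63, adjusted p = 0.0720 by limma) and Krt19 (-0.74, 0.0988) were lower. Cftr (0.58, 0.0935) and Pkhd1 (0.30, 0.396) were higher. DESeq2 called Krt7, Krt19 and Cftr, which limma did not. Sctr, the secretin receptor gene, had 1205 ± 36.6 in Klf5 LKO and 701 ± 16.5 in control (adjusted p = 0.0275 by limma). This rise did not pass without Klf5 LKO 2 (adjusted p = 0.0754), Klf5 LKO 3 (0.0962), control 1 (0.136), control 2 (0.155) or control 3 (0.0907), nor with the leukocyte (0.0657) or hepatocyte (0.0515) term.

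Among markers of other cells, 1 of the 8 tested hepatocyte markers fell (Apob) and 0 rose, and 0 of 8 leukocyte, 0 of 8 endothelial and 0 of 3 stellate cell or fibroblast markers were called by limma, edgeR, DESeq2 or voom. At an unadjusted p under 0.05, limma found 0 leukocyte, 1 endothelial and 0 stellate cell or fibroblast markers, and edgeR found 2, 1 and 1. Of the 8 tested leukocyte markers, 7 had a log2 fold change below 0 and 1 above, with a median of -1.40 by limma. The macrophage receptor gene Csf1r (log2 fold change -0.19) averaged 1206 ± 304 for Klf5 LKO against 1352 ± 169 for control. The leukocyte gene Laptm5 (-1.41) averaged 162 ± 226 for Klf5 LKO against 303 ± 273 for control. The endothelial sum was 139 to 252 in Klf5 LKO and 138 to 475 in control, led by Oit3 and Stab2. The stellate cell and fibroblast sum was 34.1 to 86.3 in Klf5 LKO and 15.6 to 52.8 in control, led by Col1a1 and Dcn, with Lrat, Des, Col1a2 and Col3a1 at 0. Of 3 tested mesothelial markers 1 fell, Msln, with 44.6 ± 52.8 in Klf5 LKO and 1242 ± 70.0 in control (adjusted p = 0.0328 by limma). Its call ended with DESeq2 (adjusted p = 0.1055), no filter (0.0688), a pseudocount of 0.5 (0.0610) and the hepatocyte term (0.0550), and without Klf5 LKO 3 (0.0687), control 1 (0.150), control 2 (0.155) or control 3 (0.127).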

How the data were processed

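RNA of biliary epithelial cells was sequenced from 3 Klf5 LKO and 3 control samples, grouped by their titles. Per the labels' protocols, libraries were made from 4 ng of RNA with a low-input cDNA kit, 10 pre-amplification cycles and 7 enrichment cycles, so low genes can be noisier. The submitters' processing notes name TopHat, Bowtie2, DESeq2 and mm10, while the sources used here give no counter or annotation. The authors deposited a signal per gene, namely its reads over the library's size factor (a normalised count). All values (100%) were whole multiples of 1 read within a tolerance of 0.001, and reads were recovered from them. A second table deposited by the authors gives log2 fold changes with standard errors, a Wald score, p-values and mean signal.

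Because the values are normalised, limma 3.58.1 with a mean trend (R 4.3.3) was fitted to log2(value + 1), with no replicate term, for genes with a mean of at least 10, so fold changes of low genes are understated. edgeR 4.0.16 (84 genes called), DESeq2 1.42.0 (335) and voom (74) on the recovered reads were alternatives, as were other scalings, filters and pseudocounts, terms for leukocyte or hepatocyte level, the replicate number as a block and leaving out each library. The fit was tested on simulated data. The 8 genes and the lists were chosen with earlier results of these data known. Of each list, up to 4 called genes are named by p, or the 2 with the highest mean where none was called; the 2 likest genes are named for each of the 8. A gene of the duct markers and one of the other transcription factors that this rule names are not reported here. Positions and exon lengths come from GENCODE release M21, built on GRCm38 (mm10).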

Additional observations from a re-analysis of the deposited data

How the results depend on the processing

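The number of the 8 genes called stayed at 0 under all 18 alternatives. Over all tested genes the 88 calls became 335 with DESeq2, 58 with the leukocyte term and 14 to 105 when 1 library was left out, and DESeq2 gave 35.5% of its calls as higher in Klf5 LKO, against 25.0% of the 88. The number of the 8 genes without overlap, counted after the values were seen, was 1 to 5 when 1 library was left out. The fold changes of Sox9, Sox4, Onecut1, Onecut2 and Foxa3 kept their sign under all 18. Near 0, the log2 fold change of Hnf4a was 0.050 with the leukocyte term and -0.19 to 0.13 with 1 library left out, that of Foxa1 -0.058 to 0.25 with 1 library left out, and that of Foxa2 -0.10 with the leukocyte term, -0.0036 with edgeR, -0.00080 with DESeq2 and -0.11 to 0.17 with 1 library left out; the cause was not tested. That of Onecut2 ranged from -0.40 to -0.21 with 1 library left out.

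With the replicate number as a block 110 genes were called, 0 of them among the 8. The labels state no shared source for equal numbers. Deviations of same-numbered libraries correlated at 0.18, -0.01 and 0.11 for numbers 1 to 3, and not every library correlated best with its own. These correlations cannot show whether same-numbered libraries shared a day, a litter or another source. With 3 libraries a group, changes smaller than the intervals given could not be told from 0.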
